A study of Homo sapiens with 14 samples.

Results

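PANC-1 cells, an established line of human pancreatic cancer, were compared after 12 h with proanthocyanidins (PA) at 20 micrograms per ml and after 12 h with the vehicle DMSO. The comparison sets 4 of the 14 RNA-seq libraries of the series against each other, 2 per group, chosen by agent and time in the labels. It covers 15181 genes that passed the expression filter, of 28120 in the table of counts. Both groups were monolayers at passage 3 to 5 in DMEM with 10% fetal bovine serum. The labels name a single line and dose and give no source or fraction of the PA. The other 10 libraries are those of DMSO alone at 0 h and of both agents at 3 and 24 h.

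Proanthocyanidins are oligomers and polymers of flavan-3-ols, found in grape seed, cocoa and many barks, and they bind proteins and metal ions. Mammalian cells make cholesterol and fatty acids under the control of SREBP transcription factors, which the endoplasmic reticulum proteins INSIG and SCAP release for cleavage when sterol is low. Glycolytic enzymes and glucose carriers are targets of hypoxia-inducible factors (HIF), whose alpha subunits are hydroxylated by iron-dependent enzymes and then degraded through VHL. Genes of mitosis are transcribed late in the cell cycle through the DREAM and FOXM1 complexes, and genes of DNA replication earlier, through E2F factors.

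Reads per library at 12 h were 26403984 and 31076409 with DMSO and 30721243 and 27801440 with PA, within the series' range of 26403984 to 35213154. Levels are given as CPM, the counts of a gene scaled by library size with TMM factors. Log2 changes are given as PA minus DMSO ± SE from edgeR, with n = 2 per group. The spread behind each SE and p-value was estimated from all 14 libraries, not from these 4 alone. The series' text calls the replicates biological without saying whether they were separate cultures, so a p-value here reflects the spread between libraries and nothing wider. In bulk RNA, fewer cells of a kind and less RNA per cell cannot be told apart. Ductal keratins KRT8, KRT18 and KRT19 and the mesenchymal filament gene VIM were at 597 CPM or above in all 4 libraries. Other markers listed for the line were lower. SOX9 was at or under 186 CPM, MUC1 31.7, L1CAM 28.6, KRT7 15.7, GATA2 13.3, EPCAM 6.29 and CDH1 0.929, and SSTR2 had no entry in the table of counts. CDKN2A, which the line is known to lack, had 0, 0, 0 and 3 reads. The 4 acinar markers in the table summed to at most 0.068 CPM in any of the 4 libraries, the 2 islet markers to 0.06 and the 5 endothelial markers to 0.432. Leukocyte markers summed to 41.4 and 45 CPM with DMSO and 79.7 and 47.3 with PA, nearly all of it the lysosomal gene CD68, with PTPRC at or under 0.103 CPM. Fibroblast markers summed to 11.2 and 8.48 CPM with DMSO and 24 and 23 with PA, mostly COL1A1, with PDGFRB at or under 0.071 CPM.

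The PA replicates stood further apart than those of any other group, with a Spearman correlation across genes of 0.978, against 0.989 to 0.996 in the other 6 groups. Both PA libraries also differed from DMSO by the GC content of the transcript. In the 10% of genes lowest in GC content (median 37.1%) the median log2 ratio to the mean of DMSO was -1.43 in PA replicate 1 and -0.62 in PA replicate 2. In the 10% highest (median 64.4%) it was 0.96 and 0.48. Between the DMSO replicates it ran from -0.04 to 0.06. Median GC content of the tested members ran from 40.6% in the long coiled-coil list to 57% in the keratin list, and was 52.9% in glycolysis and 47.9% in hypoxia. RNAs of the mitochondrial genome held 4.57% and 4.53% of the reads with DMSO and 7.75% and 6.02% with PA. What part of the changes below goes with these differences was not tested beyond a refit in which each library's trend on GC content and transcript length was removed, called the corrected fit here. Where that fit, or leaving out 1 library at 12 h, changed a gene's call or moved its fold change by more than 1.5 times, its log2 change at 12 h there closes the paragraph that gives its change at 12 h.

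**Figure D1:**
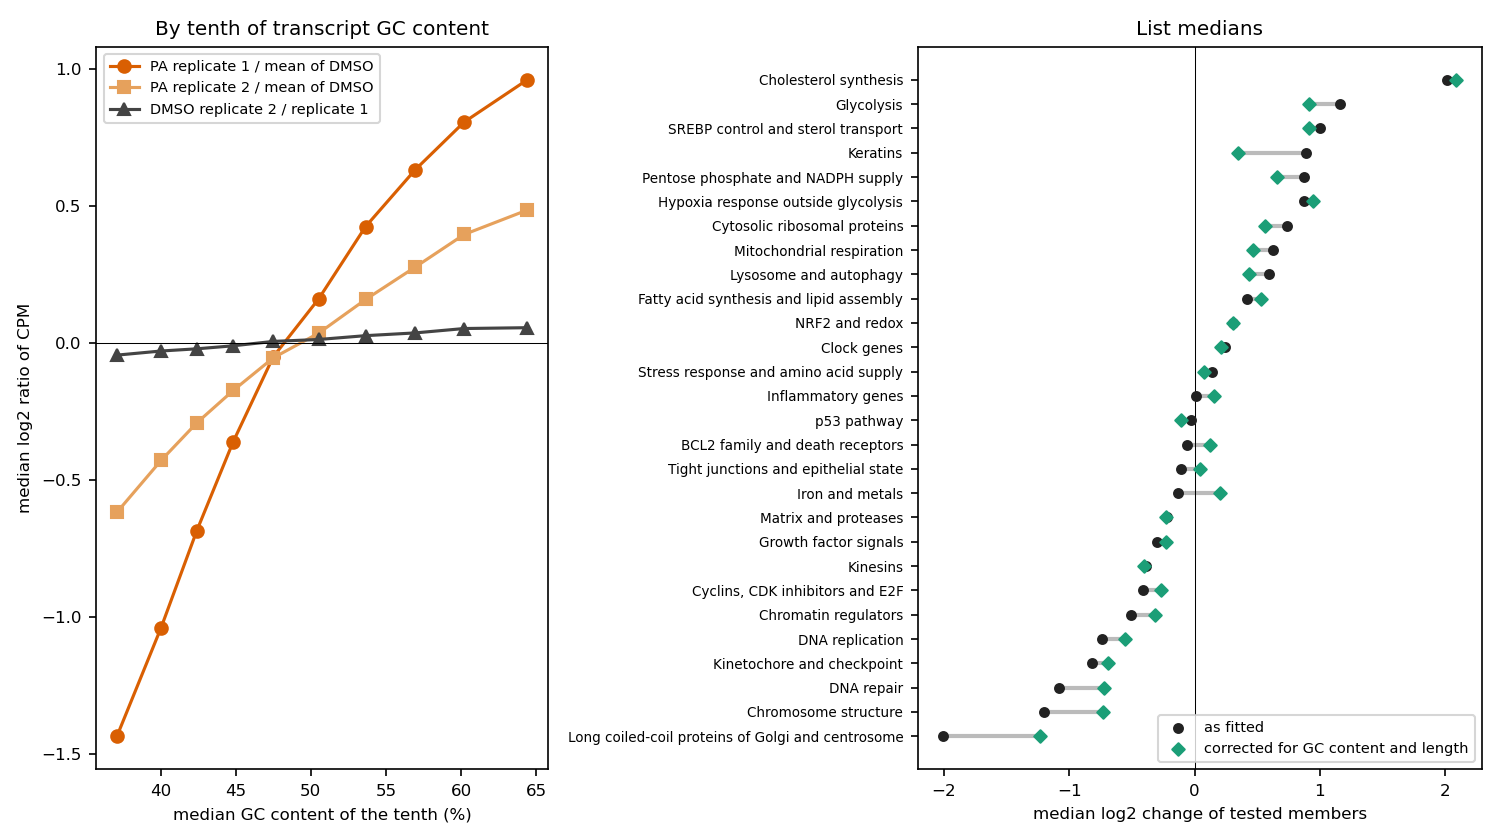
Left, median log2 ratio of CPM (y axis) against the median GC content in percent of each of 10 bins of genes of equal size (x axis), for each PA library over the mean of the DMSO libraries and for DMSO replicate 2 over replicate 1. Right, median log2 change of the tested members of each gene list as fitted (circles) and corrected for GC content and transcript length (diamonds); cholesterol synthesis stood at 2.02 and 2.09, long coiled-coil proteins at -2.0 and -1.23.

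Of the genes tested, 7363 (48.5%) passed an adjusted p of 0.05. Higher with PA were 3698 (24.4% of the genes tested) and lower 3665 (24.1%). Both PA libraries stood above both DMSO libraries for 5663 genes (37.3%) and below them for 5742 (37.8%). The 3698 genes called higher had transcripts with a median of 2464 nt and 57.7% GC, those called lower 4336 nt and 41.3%, and all tested genes 3084 nt and 48.9%. In the corrected fit 6098 genes (40.2%) passed, 3421 (22.5%) higher and 2677 (17.6%) lower, with median GC contents of 47.2% and 47.6%. Of the 7363 genes, 4083 also passed in that fit, 3901 of them in the same direction, and 1092 changed sign in it. A fit to the 4 libraries at 12 h alone called 3671 genes. Leaving out 1 library leaves a group with 1, and it moved the number called over all genes, up or down. The counts of a list without 1 library, given below, move with that number and are not a result about the list alone. Without DMSO replicate 1, 4664 genes passed, and without PA replicate 1 4462. By kind of gene, 50 of 706 long intergenic RNAs were called higher and 127 lower, and 9 of 31 small nucleolar RNAs were lower.

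**Figure D2:**
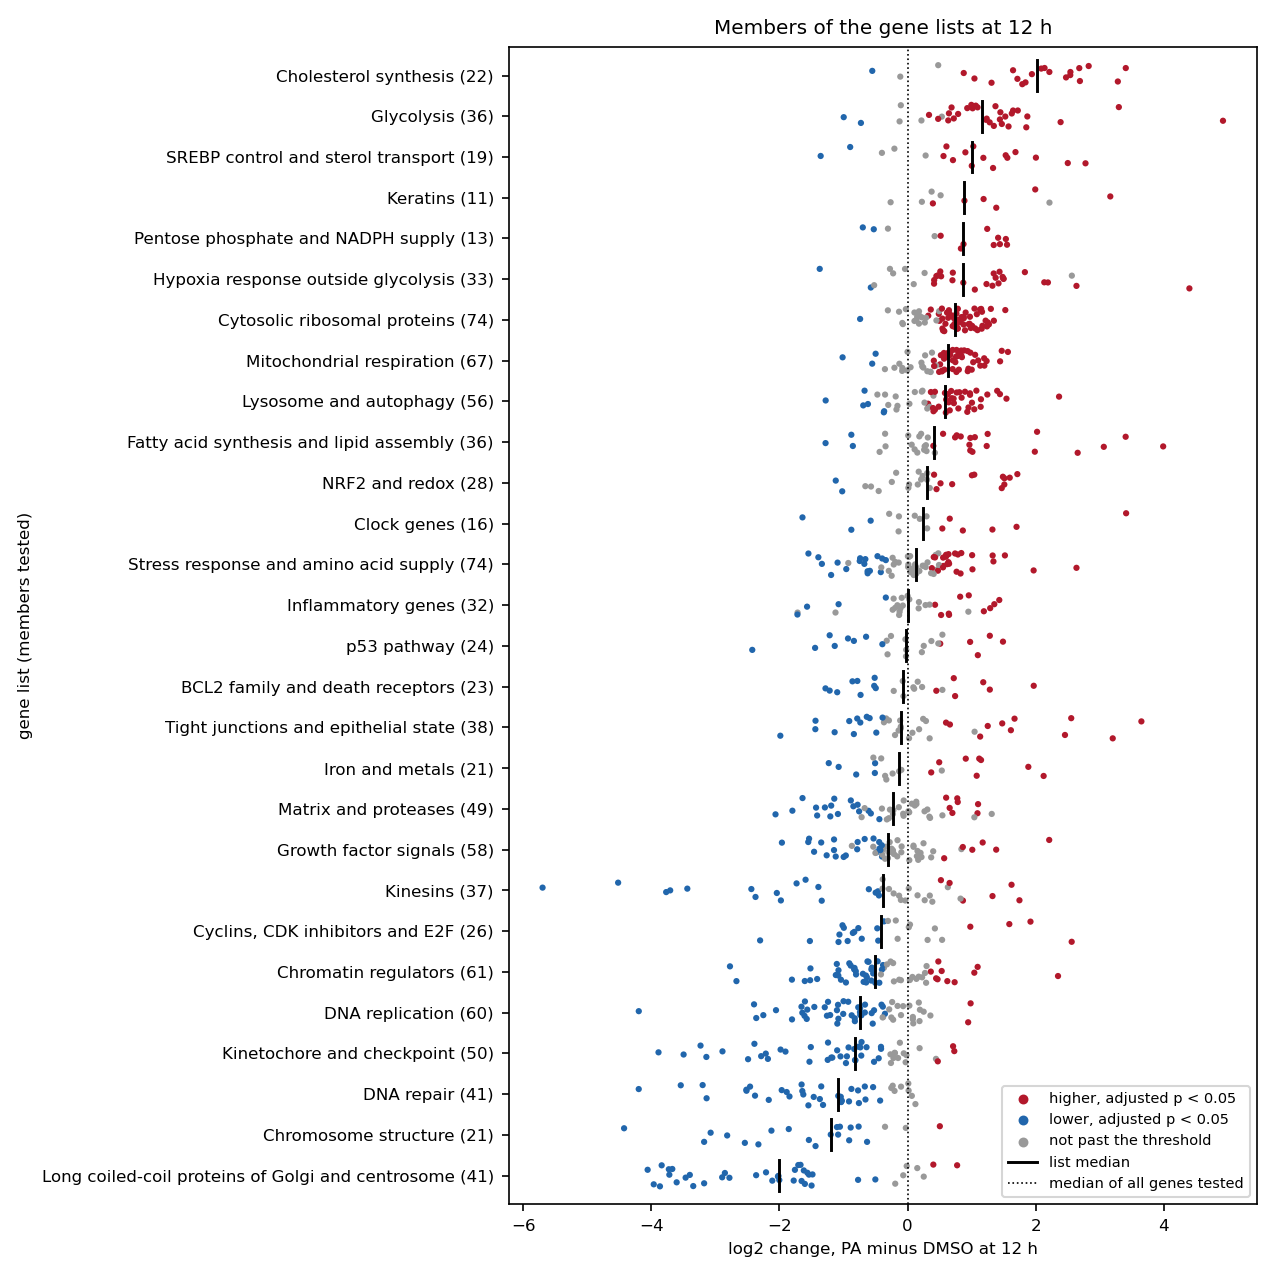
Log2 change of PA minus DMSO at 12 h (x axis) for each tested member of 28 gene lists (rows, with the number tested), coloured by call, with the list median as a bar and the median of all genes tested as a dotted line. Medians ran from -2.0 for long coiled-coil proteins to 2.02 for cholesterol synthesis.

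Genes of glucose use rose at most steps of the pathway. Of 39 genes listed for glycolysis and pyruvate handling 36 were tested; 30 rose and 2 fell, with a median log2 change of 1.16. Over all genes tested 24.4% were higher and 24.1% lower, with a median of 0.01. In the corrected fit 32 glycolysis genes were higher. SLC2A1, the main glucose carrier of most cells, was at 54.6 and 53.2 CPM with DMSO and 221 and 174 with PA, and PA and DMSO libraries did not overlap (1.87 ± 0.145, adjusted p = 2.37e-06). SLC2A3, a carrier of higher affinity, rose by 1.45 ± 0.403 and SLC2A12 by 1.37 ± 0.254. The first step, by hexokinase, rose through HK1 (1.28 ± 0.155) and HK2 (0.72 ± 0.121). PFKL, the liver-type phosphofructokinase, rose by 1.63 ± 0.171 and PFKP by 1.0 ± 0.137. PFKFB4, which makes and degrades the activator fructose 2,6-bisphosphate, stood at 9.52 and 7.39 CPM with DMSO and 97.7 and 68.9 with PA, with no overlap. Of its relatives, PFKFB3 rose by 1.24 ± 0.145 and PFKFB2 by 0.79 ± 0.152. The aldolase gene ALDOC rose 30.4-fold, from 4.52 and 2.64 CPM to 133 and 83.7, while ALDOA, the form most tissues use, rose from 1285 and 1373 to 5803 and 3813 CPM (1.86 ± 0.194). Both genes were higher in both PA libraries. All 8 tested genes of the lower steps passed, from PGAM1 (1.02 ± 0.158) to ENO2 (2.39 ± 0.189), the neuronal form of enolase, which stood at 29 and 27.6 CPM with DMSO and 179 and 117 with PA. The glycolysis list had 1 lower without DMSO replicate 2 and 1 lower without PA replicate 1. SLC2A3 stood at 1.21 (adjusted p = 0.0833) without DMSO replicate 2 and at 0.87 (adjusted p = 0.163) without PA replicate 1. SLC2A12 stood at 2.17, PFKL at 0.90 and ALDOA at 1.13 in the corrected fit.

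At the branch to lactate, LDHA rose by 0.93 ± 0.113 and the lactate exporter SLC16A3 by 1.53 ± 0.199 (adjusted p = 9.22e-05). The importer SLC16A1 fell by 0.73 ± 0.205. PDK3, a kinase that shuts pyruvate dehydrogenase, rose from 5.45 and 3.85 to 16.4 and 14.2 CPM (1.72 ± 0.215), and PDK4 fell by 1.0 ± 0.22. PDK1, a HIF target of the same family, stood at 0.54 ± 0.212 (adjusted p = 0.0508), and at 1.5 (adjusted p = 1.03e-06) in the corrected fit. The list of the pentose phosphate pathway, which supplies NADPH, and of other NADPH sources had 9 of 13 tested genes higher and 2 lower (corrected, 10 and 1). The shares of all genes were 24.4% higher and 24.1% lower. All 4 tested genes of the pathway's oxidative branch rose, and of 4 of its non-oxidative branch 2 rose and 2 fell. Of 5 other NADPH sources 3 rose. The pathway's enzyme gene PGD (1.55 ± 0.142) rose, as did the cytosolic NADP-dependent isocitrate dehydrogenase IDH1 (1.44 ± 0.156). The pentose phosphate list had 1 lower without DMSO replicate 1, 0 lower without DMSO replicate 2 and 1 lower without PA replicate 1. SLC16A1 stood at -0.60 (adjusted p = 0.0932) without DMSO replicate 2. SLC16A1 stood at -0.50 (adjusted p = 0.0801) and PDK1 at 0.83 (adjusted p = 0.00344) without PA replicate 1. SLC16A3 stood at 0.93, SLC16A1 at -0.27 (adjusted p = 0.149) and PDK4 at -0.16 (adjusted p = 0.391) in the corrected fit.

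Cholesterol synthesis had the highest median of the 28 lists. All 22 listed genes passed the expression filter, and 19 rose and 1 fell, beside 24.4% higher and 24.1% lower of all genes. The list's median was 2.02, against 0.01 over all genes. The corrected fit called 21 higher, with a median of 2.09, and the list's median GC content, 49.4%, was near that of all genes. The mevalonate part runs from ACAT2, which joins acetyl-CoA units, to squalene. HMGCS1, a synthase early in the pathway, stood at 25.2 and 22.4 CPM with DMSO and 159.9 and 178 with PA (2.83 ± 0.207, adjusted p = 1.59e-06). MVK, the mevalonate kinase, rose by 2.48 ± 0.21, and MVD, which makes isopentenyl diphosphate, from 17.5 and 16.1 to 216 and 140.1 CPM. FDFT1, the squalene synthase, rose by 2.14 ± 0.197. PA libraries lay above DMSO libraries for each of these 4 genes. Of the steps from squalene on, SQLE rose by 1.65 ± 0.134, EBP by 2.54 ± 0.179 and DHCR7 by 2.69 ± 0.196. TM7SF2 and LBR code for the same sterol reductase activity: TM7SF2 rose from 7.54 and 5.18 to 73.1 and 50.6 CPM (3.29 ± 0.243), and LBR, also a protein of the nuclear envelope, fell by 0.55 ± 0.159 (adjusted p = 0.0116). LBR stood at 0.46 (adjusted p = 0.00865) in the corrected fit. IDI1, the isomerase of the isoprene unit, did not pass (0.48 ± 0.472, adjusted p = 0.422). The cholesterol synthesis list had 0 lower without DMSO replicate 1, 0 lower without DMSO replicate 2, 0 lower without PA replicate 1 and 2 lower without PA replicate 2. LBR stood at -0.54 (adjusted p = 0.0685) without DMSO replicate 1, at -0.57 (adjusted p = 0.0537) without DMSO replicate 2 and at -0.37 (adjusted p = 0.0998) without PA replicate 1. HMGCS1 stood at 3.62, MVK at 1.86, MVD at 2.57, TM7SF2 at 2.53 and IDI1 at 1.17 in the corrected fit.

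The control genes of the pathway moved with it. SREBF2, the SREBP of cholesterol genes, rose by 1.53 ± 0.166, and SREBF1, that of fatty acid genes, rose from 21.3 and 18 to 98.9 and 58.8 CPM (2.01 ± 0.219). INSIG1 rose more (2.78 ± 0.189) than INSIG2 (1.0 ± 0.182), though that difference between genes was not tested. The site 2 protease gene MBTPS2 fell by 0.90 ± 0.232. APOE, which carries lipid out of cells, rose from 3.73 and 4.52 to 28.1 and 18.8 CPM (2.5 ± 0.254). ABCA1, the cholesterol exporter and a target of liver X receptors, went the other way and fell by 1.36 ± 0.288. Its level was 3.63 and 2.64 CPM in the DMSO libraries and 1.08 and 1.36 in the PA libraries. Of the 6 tested genes listed for efflux and as liver X receptor targets, APOE and ABCA1 among them, 4 rose and 1 fell (corrected, 5 and 1). In all, 14 of 19 tested genes of SREBP control and sterol transport rose and 2 fell, beside 24.4% and 24.1% of all genes. The SREBP control list had 1 lower without DMSO replicate 1 and 1 lower without PA replicate 1. MBTPS2 stood at -0.75 (adjusted p = 0.0684) without DMSO replicate 1 and at -0.56 (adjusted p = 0.0551) without PA replicate 1. SREBF1 stood at 1.33, INSIG2 at 1.98, MBTPS2 at 0.26 (adjusted p = 0.315) and APOE at 1.64 in the corrected fit.

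Fatty acid genes rose at the start of synthesis and at desaturation. Of 36 tested genes 18 rose and 3 fell (corrected, 17 and 1), beside 24.4% and 24.1% of all genes (corrected, 22.5% and 17.6%). The list's median was 0.41. All 3 tested sources of cytosolic acetyl-CoA passed: ACSS2, which activates acetate, stood at 20.9 and 18.3 CPM with DMSO and 375 and 249 with PA (3.99 ± 0.248), ACLY rose by 1.99 ± 0.142, and the citrate exporter SLC25A1 by 2.02 ± 0.207. FASN, the synthase, rose from 117 and 104 to 876 and 521 CPM (2.66 ± 0.224), and ACACA, the carboxylase of the committed step, by 1.05 ± 0.156. SCD, which makes oleate, stood at 669.8 and 466 CPM with DMSO and 6519 and 5532 with PA. FADS2, which starts polyunsaturated synthesis, stood at 127 and 96.8 CPM with DMSO and 1093 and 783 with PA. Neither gene's groups overlapped. Of elongase genes, ELOVL1 rose (0.56 ± 0.198) and ELOVL2 fell (-0.85 ± 0.189). The lipid droplet gene PLIN2 rose by 0.98 ± 0.137, and PLIN4, outside the list, from 1.27 and 0.879 to 11.8 and 6.39 CPM (3.09 ± 0.313). GPAM, the first acyltransferase of triglyceride synthesis, fell by 1.28 ± 0.24, and ACADM, which oxidises medium chains, by 0.88 ± 0.245. The fatty acid list had 6 lower without PA replicate 2. ELOVL1 stood at 0.54 (adjusted p = 0.12) without DMSO replicate 2. ELOVL1 stood at 0.54 (adjusted p = 0.128) and ACADM at -0.85 (adjusted p = 0.0623) without DMSO replicate 1. ELOVL1 stood at 0.29 (adjusted p = 0.298) and ACADM at -0.47 (adjusted p = 0.0684) without PA replicate 1. SLC25A1 stood at 1.18, FADS2 at 2.47, ELOVL1 at 0.09 (adjusted p = 0.632), ELOVL2 at -0.03 (adjusted p = 0.866), GPAM at -0.48 and ACADM at -0.30 (adjusted p = 0.0899) in the corrected fit.

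**Figure D3:**
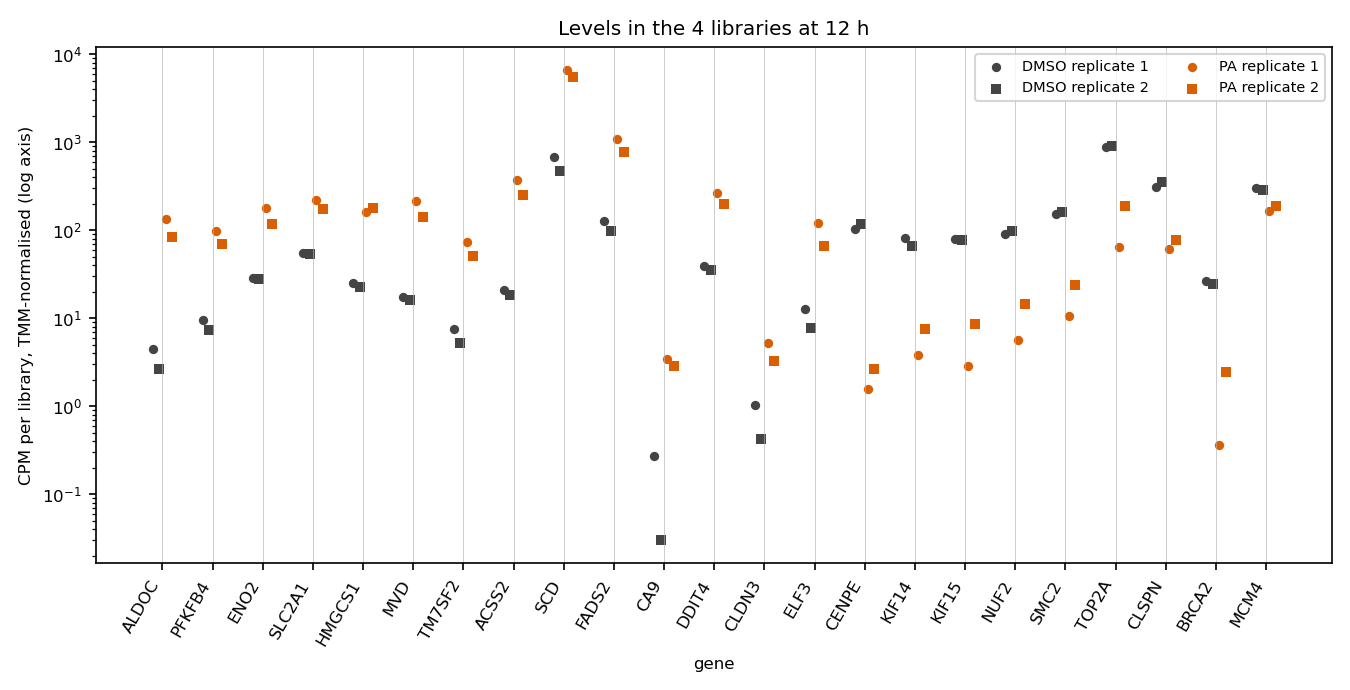
CPM per library after TMM scaling (y axis, log scale) of 23 genes named in the text (x axis) in DMSO replicates 1 and 2 (grey) and PA replicates 1 and 2 (orange) at 12 h. For the 14 genes from ALDOC to ELF3 both PA libraries stand above both DMSO libraries, and for the 9 from CENPE to MCM4 both stand below.

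The letters before the start of the sterol genes were read next. RefSeq windows from 250 bases before to 50 after the gene start were matched by symbol for 11037 of the 15181 genes and searched on both strands. A CCAAT box (CCAAT), the letters bound by NF-Y, was held by 12 of 17 windows of cholesterol genes (70.6%) and by 36.3% of all windows. The same letters were held by 37.5% of windows of genes called higher and 37.9% of those called lower, and by 61.5% in the kinetochore list and 52% in the replication list. The letters TCACNCCAC, a core spelling of the sterol regulatory element, were in 0 of 17 of these windows and in 1.12% of all, which says only that this spelling is not in these windows. The windows before the start of MVD and FDPS are shown because both genes are among the 20 largest rises and each holds 3 CCAAT boxes, in capitals, in either orientation. MVD lies on the minus strand at chr16:88663092-88663341 and FDPS on the plus strand at chr1:155308616-155308865 (GRCh38.p14, RefSeq), both 5′ to 3′.
MVD: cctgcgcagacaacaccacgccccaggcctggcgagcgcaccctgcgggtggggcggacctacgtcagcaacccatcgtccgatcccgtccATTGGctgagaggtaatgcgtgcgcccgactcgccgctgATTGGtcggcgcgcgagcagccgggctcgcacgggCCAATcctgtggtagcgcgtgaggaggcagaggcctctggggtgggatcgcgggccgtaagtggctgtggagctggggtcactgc
FDPS: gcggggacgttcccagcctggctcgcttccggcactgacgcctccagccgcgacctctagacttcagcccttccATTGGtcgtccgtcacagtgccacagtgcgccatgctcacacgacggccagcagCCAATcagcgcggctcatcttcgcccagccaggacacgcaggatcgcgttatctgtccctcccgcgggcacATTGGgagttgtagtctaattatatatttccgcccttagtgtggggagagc

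Genes of the hypoxia response outside glycolysis, HIF targets and the HIF system together, also rose as a group. Of 35 listed genes 33 were tested, 24 rose and 2 fell, with a median of 0.87 (corrected, 27 and 2, median 0.94). The shares of all genes were 24.4% higher and 24.1% lower (corrected, 22.5% and 17.6%). The 2 listed genes that fell belong to the HIF system: 1 of 3 HIF factor genes and 1 of 5 hydroxylase and degradation genes. CA9, the carbonic anhydrase that marks hypoxic tumour cells, had 8 and 1 reads with DMSO and 96 and 81 with PA, so its log2 change of 4.4 ± 0.823 (adjusted p = 0.00095) starts from a level near the limit of detection. NDRG1 rose from 88.7 and 81.2 to 410.1 and 366 CPM (2.19 ± 0.144), and TMEM45A, a membrane protein gene, by 2.14 ± 0.285. DDIT4, an inhibitor of mTORC1, stood at 39.2 and 34.9 CPM with DMSO and 261 and 200.1 with PA (2.64 ± 0.18, adjusted p = 1.44e-06). Both PA libraries were higher for NDRG1 and DDIT4. BNIP3, a receptor of mitophagy, rose by 1.5 ± 0.136, MXI1, an antagonist of MYC, by 1.42 ± 0.173, and ANGPTL4, an inhibitor of lipoprotein lipase, by 1.49 ± 0.174. All 6 chromatin and transcription genes of the list passed, among them CITED2 (1.35 ± 0.19) and KDM4B (1.5 ± 0.168). The hypoxia list had 1 lower without DMSO replicate 1 and 5 lower without PA replicate 2. CA9 stood at 6.52 without DMSO replicate 1 and at 3.5 without DMSO replicate 2. CA9 stood at 3.74, DDIT4 at 2.04 and ANGPTL4 at 0.74 in the corrected fit.

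The HIF system itself did not move one way. HIF1A fell by 1.37 ± 0.276 (adjusted p = 0.00147), from 211 and 211 to 54.6 and 108 CPM, and EPAS1, which codes for HIF-2 alpha, rose by 0.47 ± 0.148. HIF1A stood at -0.31 (adjusted p = 0.0757) in the corrected fit. EGLN3, a hydroxylase that is itself a HIF target, rose by 1.83 ± 0.519 and EGLN1 by 0.52 ± 0.163, while VHL fell by 0.57 ± 0.154. The collagen hydroxylase P4HA1 rose by 0.71 ± 0.168 and P4HA2 by 1.44 ± 0.143. VEGFA, the angiogenic factor, rose by 0.51 ± 0.128. EGLN1 stood at 0.33 (adjusted p = 0.0984) without PA replicate 2. EPAS1 stood at 0.52 (adjusted p = 0.0619), EGLN3 at 2.57, EGLN1 at 0.59 (adjusted p = 0.0602), VHL at -0.40 (adjusted p = 0.11) and VEGFA at 0.42 (adjusted p = 0.064) without DMSO replicate 1. EPAS1 stood at 0.41 (adjusted p = 0.121), EGLN3 at 1.3 (adjusted p = 0.111), EGLN1 at 0.44 (adjusted p = 0.134) and P4HA1 at 0.63 (adjusted p = 0.0532) without DMSO replicate 2. P4HA1 stood at 1.35 in the corrected fit.

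The letters TACGTG, a core of the hypoxia response element, were in 8 of 28 windows of this list (28.6%), in 3 of 32 of the glycolysis list and in 3.4% of all windows. They were in 3.4% of the windows of genes called higher and 3.6% of those called lower. In CA9 they lie -18 bases from the start and in ALDOC -28, and in both genes the match, in capitals, is on the strand opposite to the gene. The window of CA9 is at chr9:35673678-35673927 on the plus strand and that of ALDOC at chr17:28576896-28577145 on the minus strand.
CA9: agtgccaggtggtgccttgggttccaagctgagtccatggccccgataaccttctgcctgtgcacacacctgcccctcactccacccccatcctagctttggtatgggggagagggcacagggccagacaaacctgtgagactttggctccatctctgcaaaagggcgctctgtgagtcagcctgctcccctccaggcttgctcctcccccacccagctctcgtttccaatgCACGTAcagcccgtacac
ALDOC: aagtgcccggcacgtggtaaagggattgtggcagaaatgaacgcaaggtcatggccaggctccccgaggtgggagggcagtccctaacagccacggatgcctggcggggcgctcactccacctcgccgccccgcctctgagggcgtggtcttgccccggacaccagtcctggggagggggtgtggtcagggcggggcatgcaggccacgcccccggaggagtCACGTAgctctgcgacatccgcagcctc

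Genes of mitosis were among the largest falls. Of 37 tested kinesin genes 6 rose and 17 fell, and the 13 that work in mitosis and the 24 that carry cargo gave different counts, a difference that was not tested. Of the mitotic members 11 fell, and of the transport members 6 fell and 6 rose. The transport counts are near the shares of all genes tested, 24.1% lower and 24.4% higher. In the corrected fit 13 mitotic members were lower. CENPE, the motor that carries chromosomes to the metaphase plate, stood at 103 and 118 CPM with DMSO and 1.58 and 2.64 with PA (-5.7 ± 0.414). KIF14, a motor of cytokinesis, fell from 82.2 and 66.7 to 3.78 and 7.61 CPM (-3.71 ± 0.404, adjusted p = 2.58e-05), and KIF15, which assists spindle assembly, from 78.8 and 77.1 to 2.84 and 8.57 CPM (-3.77 ± 0.423). Each of the 3 was lower in both PA libraries, and lowest in PA replicate 1. KIF18A, which limits chromosome movement at the metaphase plate, fell by 3.44 ± 0.445, and KIF23, of the central spindle, by 2.04 ± 0.295. KIF20A and KIF2C fell by 0.46 ± 0.123 and 0.45 ± 0.121. Among transport kinesins KIF5B, the ubiquitous heavy chain, fell by 2.37 ± 0.393 and KIF21A by 1.98 ± 0.246, and KIF3C rose by 1.75 ± 0.238, KIF1A by 1.33 ± 0.175 and the light chain gene KLC4 by 1.62 ± 0.228. The kinesin list had 3 higher without DMSO replicate 1 and 3 higher without PA replicate 1. KIF2C stood at -0.39 (adjusted p = 0.0651) without DMSO replicate 2. KIF15 stood at -3.18 without PA replicate 1. KIF14 stood at -4.3, KIF15 at -4.77, KIF18A at -4.34, KIF23 at -2.73 and KIF5B at -3.25 without PA replicate 2. CENPE stood at -4.42, KIF14 at -2.69, KIF15 at -3.1, KIF18A at -2.46, KIF5B at -1.52, KIF21A at -1.32 and KLC4 at 1.0 in the corrected fit.

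The kinetochore, which ties chromosomes to spindle microtubules, and its checkpoint had 35 of 50 tested genes lower and 3 higher. The corrected fit gave the same counts, and the list's median GC content was 42.8%. Of all genes 24.1% were lower and 24.4% higher (corrected, 17.6% and 22.5%). NUF2 and NDC80, partners in the microtubule-binding complex, fell by 3.23 ± 0.347 and 2.89 ± 0.423. NUF2 was at 91.5 and 98.7 CPM in the DMSO libraries and at 5.72 and 14.5 in the PA libraries, with no overlap. CASC5 (KNL1), the scaffold of the outer kinetochore, fell by 3.5 ± 0.573. CENPC, a centromere protein gene, fell by 3.14 ± 0.437. The checkpoint kinase genes TTK and BUB1 fell by 2.39 ± 0.388 and 1.24 ± 0.204. CDK1, the kinase of mitotic entry, fell from 75.6 and 79.3 to 16.4 and 37.1 CPM (-1.53 ± 0.273), and AURKA by 0.83 ± 0.128. PLK1 (-0.26 ± 0.17, adjusted p = 0.224) and CDC20 (-0.20 ± 0.173, adjusted p = 0.356) did not pass, and they stood at -0.80 (adjusted p = 0.00014) and -0.79 (adjusted p = 9.33e-05) in the corrected fit. CENPB, MAD1L1 and FZR1 were the 3 members called higher, and none of the 3 was called in the corrected fit. The kinetochore list had 1 higher without PA replicate 1 and 5 higher without PA replicate 2. NDC80 stood at -2.24, CASC5 at -2.82 and TTK at -1.78 without PA replicate 1. NUF2 stood at -4.05, NDC80 at -4.07, CASC5 at -4.79, CENPC at -3.85, TTK at -3.47 and CDK1 at -2.23 without PA replicate 2. NUF2 stood at -2.51, CASC5 at -2.52, CENPC at -2.15, TTK at -1.76 and CDK1 at -0.65 in the corrected fit.

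Of 21 tested genes of chromosome structure 18 fell and 1 rose (corrected, 14 lower), with a median GC content of 40.7%. The shares of all genes were 24.1% lower and 24.4% higher (corrected, 17.6% lower). SMC2, a core subunit of both condensins, stood at 152 and 159 CPM with DMSO and 10.7 and 23.7 with PA (-3.18 ± 0.412), and SMC3 of cohesin fell by 3.08 ± 0.371. NIPBL, which loads cohesin, fell by 2.54 ± 0.355, and RAD21, its cleavable subunit, by 0.91 ± 0.221. TOP2A, which untangles sister chromosomes, fell from 881 and 899 to 63.7 and 189 CPM (-2.82 ± 0.39, adjusted p = 0.000138). The libraries of PA and DMSO did not overlap for SMC2 or TOP2A. HMMR, a spindle protein outside the list, fell by 3.81 ± 0.42. The chromosome structure list had 0 higher without DMSO replicate 1, 0 higher without DMSO replicate 2 and 0 higher without PA replicate 1. TOP2A stood at -2.23 without PA replicate 1. SMC2 stood at -3.86, NIPBL at -3.19, TOP2A at -3.8 and HMMR at -4.64 without PA replicate 2. SMC2 stood at -2.15, SMC3 at -2.19, NIPBL at -1.61, RAD21 at -0.22 (adjusted p = 0.118), TOP2A at -1.98 and HMMR at -2.86 in the corrected fit.

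The letters TTTGAA, the cell cycle homology region of late cell cycle promoters, were in 21 of 39 windows of the kinetochore list (53.8%), in 10 of 30 of the kinesins (33.3%) and in 9.54% of all windows. They were in 13.9% of the windows of genes called lower and 5.4% of those called higher. These shares are a description, with no test. KIF11, the motor that separates spindle poles, holds the match -28 and KIF15 -35 bases from the start. In both genes the match, in capitals, is on the strand opposite to the gene. Both windows lie on the plus strand, that of KIF11 at chr10:92592880-92593129 and that of KIF15 at chr3:44761544-44761793.
KIF11: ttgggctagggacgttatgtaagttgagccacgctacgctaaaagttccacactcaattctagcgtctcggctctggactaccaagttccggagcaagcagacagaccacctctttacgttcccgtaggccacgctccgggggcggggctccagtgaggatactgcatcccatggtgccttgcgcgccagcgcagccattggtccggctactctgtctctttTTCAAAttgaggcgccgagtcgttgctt
KIF15: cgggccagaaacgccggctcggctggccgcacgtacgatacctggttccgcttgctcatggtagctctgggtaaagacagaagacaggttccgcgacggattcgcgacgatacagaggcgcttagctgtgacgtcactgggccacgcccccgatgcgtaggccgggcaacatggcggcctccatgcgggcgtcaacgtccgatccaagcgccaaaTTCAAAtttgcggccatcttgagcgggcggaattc

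Among genes that control the cell cycle most cyclin and E2F genes that passed fell, and the CDK inhibitors that passed rose. Of 5 tested CDK inhibitor genes 3 rose, with a median of 0.98. In the corrected fit 2 were higher and 1 lower, with a median of 0.26. CCNE2, the cyclin of S phase entry, fell by 2.3 ± 0.364, CCNA2 by 0.85 ± 0.186 and CCNB1 by 0.46 ± 0.112. E2F2, E2F3, E2F5 and E2F7 were the 4 of 7 tested E2F genes that fell, from 0.94 ± 0.167 for E2F3 to 1.08 ± 0.344 for E2F2. All 3 tested pocket protein genes fell, among them RBL1 (-1.53 ± 0.265) and RBL2 (-0.71 ± 0.179), against 1 of 3 in the corrected fit. CCNG2, an atypical cyclin induced when growth factors are withdrawn, rose from 5.72 and 5.88 to 35.6 and 33 CPM (2.56 ± 0.199, adjusted p = 2.37e-06). CDKN1C, an inhibitor of G1 kinases, stood at 2.36 and 1.61 CPM with DMSO and 7.73 and 7.25 with PA (1.92 ± 0.261). CDKN1A, the inhibitor that p53 induces, rose by 1.59 ± 0.178. The groups did not overlap for CCNG2 or CDKN1C. Of the list's 26 tested genes 4 rose and 14 fell, beside 24.4% higher and 24.1% lower of all genes tested. E2F2 stood at -0.89 (adjusted p = 0.122) and RBL2 at -0.58 (adjusted p = 0.0688) without DMSO replicate 1. CCNE2 stood at -1.67 and RBL2 at -0.48 (adjusted p = 0.052) without PA replicate 1. CCNE2 stood at -3.42 and E2F2 at -0.88 (adjusted p = 0.0644) without PA replicate 2. CCNE2 stood at -1.35, CCNB1 at -0.08 (adjusted p = 0.628), RBL1 at -0.69, RBL2 at -0.19 (adjusted p = 0.215), CCNG2 at 3.4 and CDKN1C at 1.16 in the corrected fit.

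DNA replication genes fell too. Of 60 tested members 40 fell and 2 rose (corrected, 45 and 4), with a median of -0.74 and a median GC content of 44.8%. Of all genes 24.1% were lower and 24.4% higher (corrected, 17.6% and 22.5%). CLSPN, which relays the stalled fork signal, stood at 308 and 353 CPM with DMSO and 61 and 77.6 with PA (-2.25 ± 0.19), and WDHD1, a fork protein, fell by 2.4 ± 0.354. The firing kinase gene CDC7 fell by 1.66 ± 0.277 and its partner DBF4 by 1.61 ± 0.343. RFC1, the large subunit of the clamp loader, fell by 2.05 ± 0.224. MCM4, of the replicative helicase, stood at 304 and 285 CPM with DMSO and 166 and 186 with PA (-0.74 ± 0.115), MCM3 fell by 0.74 ± 0.126 and MCM6 by 0.74 ± 0.141. All of these genes were lower in both PA libraries. MCM2 (0.19 ± 0.153, adjusted p = 0.313), MCM5 (0.08 ± 0.149, adjusted p = 0.671) and MCM7 (0.18 ± 0.173, adjusted p = 0.42), of the same helicase, did not pass, and stood at -0.29, -0.32 and -0.33 in the corrected fit. TK1, which salvages thymidine, rose by 0.95 ± 0.188. The replication list had 7 higher without PA replicate 2. WDHD1 stood at -3.25, CDC7 at -2.35, DBF4 at -2.59, MCM2 at 0.38 (adjusted p = 0.042) and MCM7 at 0.42 (adjusted p = 0.0321) without PA replicate 2. WDHD1 stood at -1.43, CDC7 at -0.87, DBF4 at -0.90, RFC1 at -1.4, MCM6 at -0.26 (adjusted p = 0.0554) and TK1 at 0.18 (adjusted p = 0.355) in the corrected fit.

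E2F letters (TTTNGCGC) were in 16 of 50 windows of the replication list (32%) and in 2.99% of all windows. They were in 4.5% of the windows of genes called lower and 1.7% of those called higher. The window of MCM6, whose fall did not pass in the corrected fit, lies on the minus strand at chr2:135876444-135876693. It is shown because it holds 4 matches, which overlap in pairs and are in capitals.
MCM6: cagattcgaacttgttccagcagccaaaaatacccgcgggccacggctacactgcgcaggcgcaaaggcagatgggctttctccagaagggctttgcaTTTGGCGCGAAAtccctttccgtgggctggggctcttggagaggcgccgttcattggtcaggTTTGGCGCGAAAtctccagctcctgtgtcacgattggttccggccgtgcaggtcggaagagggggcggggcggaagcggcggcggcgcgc

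DNA repair genes fell along several pathways. Of 41 tested members 33 fell, with a median of -1.08 (corrected, 31, median -0.72). The share of all genes that was lower was 24.1% (corrected, 17.6%). RAD50, which bridges broken ends with the MRE11 and NBN proteins, fell by 3.54 ± 0.321, NBN by 2.46 ± 0.48 and MRE11A by 1.65 ± 0.287. FANCM, which recognises blocked forks, fell from 17.7 and 14.5 to 0.288 and 3.36 CPM (-3.14 ± 0.622), and BRCA2 stood at 26.8 and 24.6 with DMSO and 0.36 and 2.43 with PA. Both were lowest in PA replicate 1. The damage kinase genes ATR and CHEK1 fell by 1.55 ± 0.36 and 1.08 ± 0.195. NBN stood at -1.74, FANCM at -2.26, BRCA2 at -3.4 and ATR at -0.93 without PA replicate 1. NBN stood at -3.95, MRE11A at -2.39, FANCM at -5.78, BRCA2 at -6.14 and ATR at -2.64 without PA replicate 2. RAD50 stood at -2.78, NBN at -1.54, MRE11A at -0.70, FANCM at -2.15, BRCA2 at -3.02, ATR at -0.73 and CHEK1 at -0.43 in the corrected fit.

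The list with the lowest median, -2.0, was that of long coiled-coil proteins of the Golgi and centrosome, which was drawn up with earlier results of these data known. Of 41 tested members 34 fell and 2 rose, and in the corrected fit 34 and 1 with a median of -1.23. The shares of all genes were 24.1% lower and 24.4% higher (corrected, 17.6% and 22.5%). The members' median GC content was 40.6% and their median transcript length 6827 nt. CCDC88A, an actin-binding guanine exchange regulator, stood at 303 and 327 CPM with DMSO and 15.7 and 22.1 with PA (-4.06 ± 0.321, adjusted p = 2.6e-06). TRIP11, a golgin of the cis-Golgi, fell from 84 and 81.3 to 5.07 and 6.25 CPM (-3.87 ± 0.322), and GCC2, one of the trans-Golgi, by 3.47 ± 0.27. No library of one group reached the other for these genes. CEP135, of the centriole core, fell by 3.61 ± 0.378, CEP152, the platform for centriole duplication, by 2.78 ± 0.263, and PCM1, which holds centriolar satellites, by 2.36 ± 0.316. EEA1, a tether of early endosomes, fell by 3.4 ± 0.322 and the nuclear basket gene TPR by 3.35 ± 0.268. The cis-golgin gene GOLGA2 rose by 0.77 ± 0.149. UACA and PIBF1, coiled-coil genes outside the list, fell by 3.81 ± 0.345 and 3.81 ± 0.503. The coiled-coil list had 1 higher without DMSO replicate 1, 1 higher without DMSO replicate 2 and 1 higher without PA replicate 1. PIBF1 stood at -2.98 without PA replicate 1 and at -5.92 without PA replicate 2. CCDC88A stood at -2.93, TRIP11 at -2.69, GCC2 at -2.42, CEP135 at -2.45, CEP152 at -2.0, PCM1 at -1.45, EEA1 at -1.98, TPR at -2.39, UACA at -2.76 and PIBF1 at -2.88 in the corrected fit.

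Of 38 tested genes of junctions and epithelial state 11 rose and 12 fell (corrected, 12 and 6). Over all genes tested 24.4% were higher and 24.1% lower, and the list's shares are near these. Of 8 tested claudins, which seal junctions, CLDN3, CLDN4 and CLDN7 rose and 1 fell. CLDN3 stood at 1.03 and 0.424 CPM with DMSO and 5.18 and 3.29 with PA (2.56 ± 0.361). CLDN7 rose by 1.61 ± 0.214 and CLDN4 by 1.13 ± 0.249. TJP3 went from 0.959 and 0.333 to 11 and 5.07 CPM, whereas its relative TJP1 fell by 0.74 ± 0.149. ELF3, an epithelial transcription factor, rose from 12.6 and 7.67 to 120.1 and 66.8 CPM (3.21 ± 0.283), and GRHL1, a factor of epithelial genes, fell by 1.14 ± 0.393. The desmosomal and junctional genes JUP (1.67 ± 0.181) and PKP3 (1.25 ± 0.200) rose. The mesenchymal factors ZEB1, ZEB2 and SNAI2 fell by 1.99 ± 0.319, 1.44 ± 0.362 and 1.44 ± 0.264, and N-cadherin, CDH2, by 0.91 ± 0.154. SNAI1 (1.48 ± 0.246) and SPARC, a matrix glycoprotein gene (2.46 ± 0.424), rose. CDH1, the E-cadherin gene, was at or under 0.929 CPM in the 4 libraries. Of 11 tested keratin genes 6 rose, against 4 higher and 1 lower in the corrected fit. KRT19 rose from 606 and 597 to 2915 and 1882 CPM (1.99 ± 0.186) and KRT8 by 1.39 ± 0.167. UPK1A, a uroplakin gene outside the lists, rose by 3.15 ± 0.29. The epithelial list had 7 lower without PA replicate 1. CLDN3 stood at 3.29 and TJP3 at 4.55 without DMSO replicate 1. TJP3 stood at 3.04 and GRHL1 at -0.88 (adjusted p = 0.184) without DMSO replicate 2. TJP3 stood at 3.0 and GRHL1 at -0.86 (adjusted p = 0.189) without PA replicate 1. ZEB1 stood at -2.71 and ZEB2 at -2.32 without PA replicate 2. CLDN3 stood at 1.69, CLDN7 at 0.94, TJP3 at 2.94, GRHL1 at -0.85 (adjusted p = 0.0865), JUP at 1.04, PKP3 at 0.46, ZEB1 at -1.03, ZEB2 at -0.48 (adjusted p = 0.182), SNAI1 at 0.88 and KRT19 at 1.24 in the corrected fit.

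Stress genes were mixed at 12 h. In the list of stress response and amino acid supply 25 of 74 tested genes rose and 17 fell, with a median of 0.14, beside 24.4% and 24.1% of all genes. NUPR1, a stress-induced chromatin protein gene, stood at 12.1 and 13.8 CPM with DMSO and 60.9 and 40.3 with PA (1.97 ± 0.224), with no overlap. TRIB3, which restrains AKT, rose by 1.52 ± 0.221. Further targets of ATF4, DDIT3 (0.44 ± 0.197, adjusted p = 0.0794) and CHAC1 (0.46 ± 0.228, adjusted p = 0.109), did not pass. Chaperones of the cytosol and endoplasmic reticulum went both ways. Of 11 tested genes in the chaperone part of the list 2 rose and 3 fell (corrected, 4 and 1). In the heat shock part 4 of 11 rose and 3 fell (corrected, 2 and 5). HSP90AA1 stood at -1.55 ± 0.303 and HSP90B1 at -1.39 ± 0.217, while the small heat shock gene HSPB1 rose by 1.33 ± 0.175. Of tRNA synthetase genes, EPRS fell by 1.19 ± 0.277 and QARS rose by 1.01 ± 0.168. The stress list had 10 lower without DMSO replicate 2 and 15 higher and 8 lower without PA replicate 1. DDIT3 stood at 0.52 (adjusted p = 0.0453), CHAC1 at 0.74 (adjusted p = 0.00811), HSP90AA1 at -2.3 and EPRS at -1.9 without PA replicate 2. TRIB3 stood at 0.83, CHAC1 at -0.31 and HSPB1 at 0.51 in the corrected fit.

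Of 28 tested redox genes 12 rose and 2 fell, beside 24.4% higher and 24.1% lower of all genes tested. GPX4, which reduces lipid peroxides, rose from 168 and 166 to 628 and 470.1 CPM (1.72 ± 0.166), PRDX5 by 1.51 ± 0.212 and PRDX2 by 1.49 ± 0.183. NQO1, a classical NRF2 target, rose by 0.70 ± 0.122, whereas GCLM, of glutathione synthesis, fell by 1.12 ± 0.208, as did NFE2L2, which codes for NRF2 itself (-1.02 ± 0.232). The cytochrome CYP1A1, a target of the aryl hydrocarbon receptor, had 22 and 29 reads with DMSO and 64 and 63 with PA (1.47 ± 0.291, adjusted p = 0.00133). Of iron and metal genes 8 of 21 rose and 5 fell (corrected, 10 and 2), the falls near the share over all genes. The ferritin genes FTH1 and FTL, which store iron and have many pseudogenes, rose by 1.12 ± 0.197 and 1.15 ± 0.197, and TFRC, which imports transferrin, fell by 0.51 ± 0.171. TF, transferrin itself, rose by 1.89 ± 0.434. LCN2, the siderophore carrier, stood at 0.788 and 0.333 CPM with DMSO and 3.02 and 1.82 with PA (2.13 ± 0.376). The metallothionein MT1E, of a family of near-identical genes among which reads may be split, fell by 1.08 ± 0.239. The redox list had 6 lower without PA replicate 2. The iron list had 2 lower without DMSO replicate 1, 3 lower without DMSO replicate 2 and 2 lower without PA replicate 1. TFRC stood at -0.58 (adjusted p = 0.064) without DMSO replicate 2 and at -0.26 (adjusted p = 0.234) without PA replicate 1. TFRC stood at -0.45 (adjusted p = 0.144) and LCN2 at 2.83 without DMSO replicate 1. GPX4 stood at 0.89, PRDX5 at 0.75, PRDX2 at 0.85, GCLM at -0.05 (adjusted p = 0.741), TFRC at 0.20 (adjusted p = 0.147) and TF at 2.68 in the corrected fit.

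Of 58 tested genes of growth factor signals 21 fell and 6 rose (corrected, 23 and 11), beside 24.1% lower and 24.4% higher of all genes tested. Among ligands of the EGF receptor HBEGF stood at 7.12 and 9.21 CPM with DMSO and 1.55 and 2.64 with PA (-1.96 ± 0.269, adjusted p = 0.00013), and EREG fell by 1.0 ± 0.241. EGFR fell by 0.96 ± 0.166 and MET, the receptor of hepatocyte growth factor, by 1.15 ± 0.189, while ERBB2 rose by 1.01 ± 0.227. Of 10 tested targets of YAP 7 fell and none rose (corrected, 7 lower and 1 higher), with ANKRD1 at -1.54 ± 0.221, CYR61 at -1.35 ± 0.175 and CTGF at -1.15 ± 0.186. CYR61 went from 428 and 472 to 147 and 207 CPM, and both PA libraries were below DMSO. The AP-1 gene JUND rose by 2.21 ± 0.231 and JUNB by 1.17 ± 0.16, FOSL1 fell by 0.78 ± 0.19, and MYC stood at -0.23 ± 0.15 (adjusted p = 0.224). The growth factor list had 12 lower without PA replicate 1. EREG stood at 0.12 (adjusted p = 0.484), MET at -0.51, JUND at 1.32, JUNB at 0.36, FOSL1 at -1.45 and MYC at -0.56 (adjusted p = 0.00235) in the corrected fit.

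Of 32 tested inflammatory genes 10 rose and 4 fell, beside 24.4% higher and 24.1% lower of all genes tested. Of 10 interferon genes 5 rose, such as ISG15 (1.43 ± 0.221) and MX1 (1.36 ± 0.464). The NF-kB inhibitor gene NFKBIA rose by 0.64 ± 0.12, and REL fell by 1.72 ± 0.287. Among matrix genes 17 of 49 fell and 7 rose (corrected, 19 and 3). COL12A1, a fibril-associated collagen, fell from 5.89 and 5.06 to 0.827 and 1.79 CPM (-2.06 ± 0.316), the collagen receptor ITGA2 by 1.8 ± 0.302 and THBS1 by 1.43 ± 0.216. PLAU, the urokinase gene, fell by 0.57 ± 0.163 at 12 h and had risen by 0.87 at 3 h. COL6A1 and COL6A2, of beaded filaments, rose by 1.1 ± 0.201 and 1.09 ± 0.296. The inflammatory list had 6 higher without DMSO replicate 2, 6 higher without PA replicate 1 and 7 lower without PA replicate 2. The matrix list had 4 higher without DMSO replicate 1 and 3 higher without PA replicate 1. COL6A2 stood at 0.92 (adjusted p = 0.074) without DMSO replicate 1. MX1 stood at 0.91 (adjusted p = 0.217) and PLAU at -0.53 (adjusted p = 0.0582) without DMSO replicate 2. MX1 stood at 1.12 (adjusted p = 0.12) and COL6A2 at 0.51 (adjusted p = 0.2) without PA replicate 1. REL stood at -2.39, COL12A1 at -2.72 and ITGA2 at -2.58 without PA replicate 2. ISG15 stood at 0.63, REL at -0.71, ITGA2 at -0.99, COL6A1 at 0.47 (adjusted p = 0.062) and COL6A2 at 0.33 (adjusted p = 0.296) in the corrected fit.

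Organelle genes rose by small amounts over many members. In the list of lysosome and autophagy 36 of 56 tested genes rose and 6 fell (corrected, 36 and 2). Of all genes tested 24.4% were higher and 24.1% lower (corrected, 22.5% and 17.6%). NEU1, the lysosomal sialidase, stood at 12.4 and 11 CPM with DMSO and 73.2 and 47.5 with PA (2.37 ± 0.217, adjusted p = 7.56e-06). GABARAP, a partner of autophagosome membranes, rose by 1.25 ± 0.217 and the proton pump gene ATP6V0D1 by 1.44 ± 0.207. TFEB and TFE3, factors of lysosomal genes, rose by 1.01 ± 0.279 and 0.66 ± 0.146, and MITF fell by 1.28 ± 0.244. Mitochondrial respiration had 47 of 67 genes higher and 3 lower (corrected, 46 and 1), with COX5B of cytochrome oxidase at 1.57 ± 0.254, NDUFB7 of the NADH dehydrogenase at 1.47 ± 0.248 and SUCLA2 of the citric acid cycle at -1.01 ± 0.231. Genes of cytosolic ribosomal proteins, whose counts are uncertain because many pseudogenes copy them, had 56 of 74 higher and 1 lower, with a median of 0.74. In the corrected fit 52 of them were higher and 1 lower, with a median of 0.57. FAU stood highest (1.53 ± 0.224), and RPS24 was the 1 member that fell (-0.74 ± 0.186). The lysosome list had 3 lower without DMSO replicate 1, 3 lower without DMSO replicate 2, 23 higher and 1 lower without PA replicate 1 and 10 lower without PA replicate 2. The respiration list had 28 higher and 1 lower without DMSO replicate 1, 1 lower without PA replicate 1 and 5 lower without PA replicate 2. The ribosomal protein list had 0 lower without DMSO replicate 2 and 2 lower without PA replicate 2. TFEB stood at 0.64 (adjusted p = 0.139) without PA replicate 1. TFEB stood at 0.84 (adjusted p = 0.0805) and RPS24 at -0.63 (adjusted p = 0.0572) without DMSO replicate 2. ATP6V0D1 stood at 0.84, TFEB at 0.45 (adjusted p = 0.16), TFE3 at 0.09 (adjusted p = 0.444), MITF at -0.61 and NDUFB7 at 0.62 in the corrected fit.

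Of 61 tested chromatin regulators 35 fell and 10 rose (corrected, 27 and 11). Over all genes tested 24.1% were lower and 24.4% higher. ATRX, which deposits histone H3.3, fell from 300.1 and 319.8 to 34 and 56.6 CPM (-2.77 ± 0.332), CHD1, a remodeller, by 2.67 ± 0.407, and SUZ12 and EZH2, of Polycomb complex PRC2, by 1.81 ± 0.337 and 1.08 ± 0.151. The maintenance methylation factor UHRF1 fell by 1.52 ± 0.164. HDAC5, a class II deacetylase, went the other way, from 5.45 and 5.82 to 37.1 and 20.4 CPM (2.35 ± 0.249, adjusted p = 2.14e-05). In the list of BCL2 family and death receptor genes 6 of 23 rose and 9 fell (corrected, 6 and 4). Its share of rises is near that of all genes. The BH3-only genes BMF and BBC3, which promote cell death, rose by 1.97 ± 0.266 and 1.29 ± 0.226, and PMAIP1, of the same class, fell by 1.22 ± 0.215. BBC3 stood at 0.42 (adjusted p = 0.0923) in the corrected fit. CASP8AP2, a caspase-8 associated gene outside the list, fell by 3.78 ± 0.404. In the p53 list 5 of 24 rose, a share near that of all genes, and 8 fell (corrected, 3 and 7). GDF15 rose by 1.49 ± 0.319, and the death receptor gene FAS fell from 1.23 and 1.3 to 0.216 and 0.25 CPM (-2.43 ± 0.473). Of 16 tested clock genes 6 rose and 3 fell. Among 10 tested repressors 3 rose and 2 fell (corrected, 3 and 3), and all 3 tested output genes rose (corrected, 2). DBP, a factor driven by the clock, stood at 1.7 ± 0.209 and the repressor NR1D2 at -1.64 ± 0.315. The chromatin list had 6 higher and 23 lower without DMSO replicate 1, 5 higher without DMSO replicate 2 and 5 higher without PA replicate 1. The BCL2 list had 3 higher and 3 lower without DMSO replicate 1 and 3 higher and 5 lower without PA replicate 1. The p53 list had 8 higher without PA replicate 2. The clock list had 1 lower without DMSO replicate 1. CHD1 stood at -3.56, SUZ12 at -2.72 and NR1D2 at -2.4 without PA replicate 2. ATRX stood at -1.58, CHD1 at -1.68, SUZ12 at -0.89, PMAIP1 at -0.32, CASP8AP2 at -2.77, GDF15 at 0.69, FAS at -1.65, DBP at 0.89 and NR1D2 at -0.71 in the corrected fit.

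Several of the largest changes fell outside every list. PIK3IP1, an inhibitor of PI3 kinase, rose from 1.61 and 1.61 to 16.2 and 10.6 CPM (3.06 ± 0.272, adjusted p = 6.16e-06). QPRT, which makes NAD from quinolinate, rose from 1.3 and 1.0 to 11.7 and 6.79 CPM (3.01 ± 0.312), and SLC2A6, a lysosomal hexose carrier, by 2.71 ± 0.239. SYT12, a synaptotagmin gene, rose from 0.548 and 0.515 to 6.83 and 4.21 CPM and FAM43B from 0.377 and 0.394 to 4.82 and 3.39. Groups did not overlap for the 4 genes given here with CPM. Among falls, ZNF92, a zinc finger gene, went from 8.94 and 7.94 to 0.108 and 0.857 CPM (-4.11 ± 0.519), NEXN, which binds actin filaments, from 51.7 and 66.7 to 3.27 and 5.29 (-3.79 ± 0.379), and ANKRD12 by 4.0 ± 0.314. SYCP2, known from the meiotic synaptonemal complex, stood at 54.1 and 44.9 CPM with DMSO and 2.23 and 3.39 with PA. FAM111B stood at 58.5 and 53 CPM with DMSO and 1.22 and 3.61 with PA, and the groups did not overlap for these genes. ZNF92 stood at -3.29 without PA replicate 1. ZNF92 stood at -6.23 and FAM111B at -5.5 without PA replicate 2. SLC2A6 stood at 1.93, FAM43B at 2.58, ZNF92 at -3.01, NEXN at -2.89, ANKRD12 at -2.67, SYCP2 at -2.84 and FAM111B at -3.58 in the corrected fit.

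The response at 12 h was then set against that at 3 h, which uses other libraries. The difference between the effects passed for 423 genes (2.79%), with 319 (2.1%) higher at 12 h and 104 (0.685%) lower. Cholesterol synthesis held 15 of its 22 tested genes among those with a higher effect at 12 h, glycolysis 16 of 36, hypoxia 10 of 33, and fatty acid genes 8 of 36. The medians at 3 h were 0.46, 0.38, 0.18 and 0.16 for these 4 lists. The kinetochore and replication lists each held 9 genes with a lower effect at 12 h, of 50 and 60 tested, and the coiled-coil list 2 of 41. The medians of these 3 lists were -0.06, -0.01 and -1.0 at 3 h and -0.82, -0.74 and -2.0 at 12 h. CENPE stood at -4.18 at 3 h, and its difference at 12 h did not pass (-1.52 ± 0.507, adjusted p = 0.107). At a mean of at least 2 CPM the 5 largest differences upward were those of ALDOC (effect 1.08 at 3 h, difference 3.85 ± 0.475, adjusted p = 0.00181), ACSS2 (0.79, 3.2 ± 0.321), FAM43B (0.34, 3.06 ± 0.54), TJP3 (0.64, 3.01 ± 0.657) and UPK1A (0.30, 2.86 ± 0.459). Downward they were those of ZNF92 (effect -1.24 at 3 h, difference -2.88 ± 0.689, adjusted p = 0.0418), FAM111B (-2.07, -2.46 ± 0.577), CEP135 (-1.38, -2.22 ± 0.492), KIF14 (-1.54, -2.17 ± 0.52) and NEXN (-1.63, -2.16 ± 0.488). The count moved with single libraries: it was 92 without DMSO replicate 1 at 3 h, 176 and 61 without PA replicates 1 and 2 at 3 h, 84 and 43 without DMSO replicates 1 and 2 at 12 h, and 277 and 4957 without PA replicates 1 and 2 at 12 h. Of the 10 differences given here, 2 passed without DMSO replicate 1 at 3 h or without DMSO replicate 2 at 12 h, and 10 without PA replicate 2 at 12 h.

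**Figure D4:**
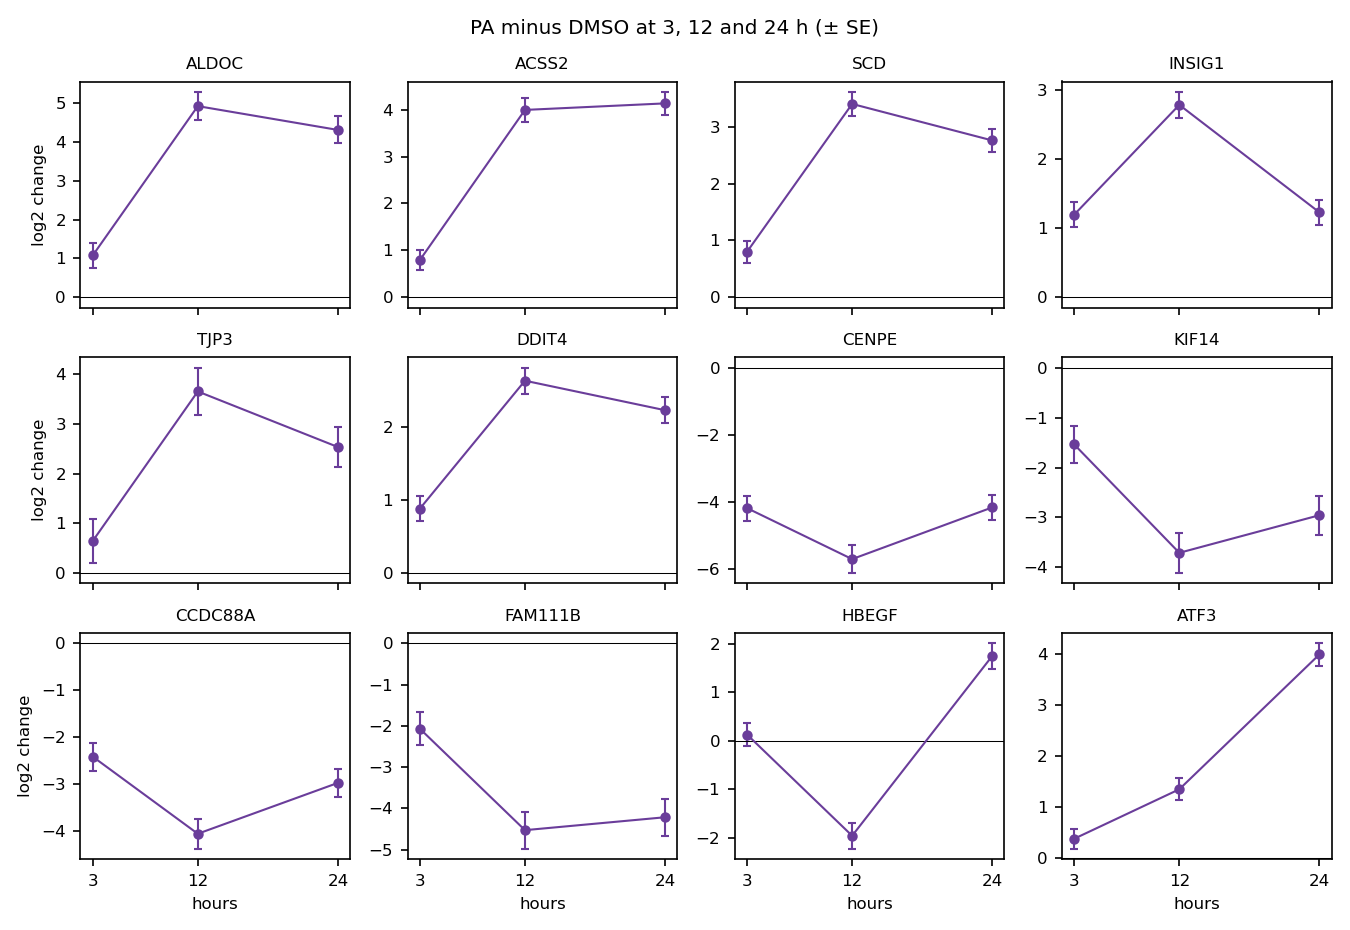
Log2 change of PA minus DMSO ± SE (y axis, its own range in each panel) at 3, 12 and 24 h (x axis, hours) for 12 genes named in the text, n = 2 libraries per group and time. ALDOC stood at 1.08, 4.93 and 4.31, INSIG1 at 1.19, 2.78 and 1.23, and HBEGF at 0.13, -1.96 and 1.75.

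Between 12 and 24 h, 64 genes (0.422%) differed in effect, 40 (0.263%) of them higher at 24 h and 24 (0.158%) lower. Growth factor genes held 9 of the 40 and stress genes 5, of 58 and 74 tested. HBEGF, lower than DMSO at 12 h, was higher at 24 h (effect 1.75, difference 3.71 ± 0.375, adjusted p = 0.00187). Its level with DMSO was 7.12 and 9.21 CPM at 12 h and 2.15 and 3.13 at 24 h, and with PA 1.55 and 2.64 and then 8.53 and 9.2. ANKRD1 went likewise (1.2, 2.73 ± 0.309). ATF3, a stress-induced transcription factor, had effects of 1.34 at 12 h and 3.98 at 24 h (difference 2.64 ± 0.294). FAM159B (-0.43 and 2.09) and the thrombomodulin gene THBD (-1.42 and 0.97) completed the 5 largest upward at a mean of at least 2 CPM, with differences of 2.52 ± 0.454 and 2.39 ± 0.459. FAM159B had 378 and 304 reads with DMSO and 244 and 215 with PA at 12 h, but RPKM of at most 0.04 in the authors' table, so its level is uncertain. Downward, INSIG1 went from an effect of 2.78 to 1.23 (difference -1.55 ± 0.252, adjusted p = 0.0205). With PA it stood at 481 and 481 CPM at 12 h and 525 and 547 at 24 h, while with DMSO it went from 79.3 and 60.7 to 253 and 205 CPM. The zinc finger gene ZNF792 differed by -2.42 ± 0.471, the helicase gene PIF1 by -2.06 ± 0.349, SOX21 by -2.0 ± 0.31 and the Wnt feedback gene AXIN2 by -1.85 ± 0.348. Of the mitotic genes, KIF4A, KIF20A, AURKA, CDCA8, CCNB1 and CCNB2 were further below DMSO at 24 h than at 12 h, by differences from -0.86 to -1.33. Here too the count moved with single libraries: it was 8 and 4 without DMSO replicates 1 and 2 at 12 h, 522 and 316 without PA replicates 1 and 2 at 12 h, 4 and 14 without DMSO replicates 1 and 2 at 24 h, and 22 without PA replicate 1 at 24 h. Of the 16 differences given here, 3 passed without DMSO replicate 1 at 12 h or without DMSO replicate 2 at 12 h or without DMSO replicate 1 at 24 h, and 16 without PA replicate 1 at 12 h or without PA replicate 2 at 12 h. FAM159B stood at 12 h at -0.84 (adjusted p = 0.0475) in the corrected fit.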

How the data were processed

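RNA of PANC-1 cells was sequenced as paired reads, per the labels' protocols. The deposited table of counts holds whole-number reads per gene, and the deposited RPKM table holds reads scaled to length and depth as the authors computed them. The tables differ for some genes: 109 of 9767 tested genes with at least 100 reads in each 12 h library had RPKM under 0.1 in all 4, and 64 of the 109 are annotated as antisense. The submitters' processing notes name TopHat2, edgeR and GRCh38. The counting tool, annotation and strand setting are not stated in any source used here. edgeR 4.0.16 (R 4.3.3) was fitted to all 14 libraries in 7 groups with TMM scaling, its filter on low counts by group and the quasi-likelihood test, leaving 7 residual degrees of freedom. Every adjusted p is from that test, with Benjamini-Hochberg adjustment over all genes tested and a threshold of 0.05. The corrected fit used natural splines with 5 degrees of freedom on GC content and length of the longest GENCODE transcript of each gene, which 15071 genes had. Named genes were the 20 largest rises and falls at a mean of at least 2 CPM with groups that do not overlap, up to 4 genes with the smallest p per list and direction, members whose role completes the account, and, at the same mean level, the 5 largest differences each way between times. Genes, lists and comparison were chosen with earlier results of these data known. Some genes that this rule names are not reported here. Promoter windows came from RefSeq (GRCh38.p14). DESeq2 1.42.0, limma 3.58.1 on log2 RPKM, other filters, a replicate block and leaving out each library were the alternatives, and the fits were tested on simulated data.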

Additional observations from a re-analysis of the deposited data

Results flagged for a closer look

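For 26 named genes the effect of PA differed between times by edgeR's test of the difference itself, on the log2 scale and adjusted over all genes tested. From 3 to 12 h it moved up by 3.85 for ALDOC, 3.2 for ACSS2, 3.06 for FAM43B, 3.01 for TJP3 and 2.86 for UPK1A. It moved down over the same interval, by -2.88 for ZNF92, -2.46 for FAM111B, -2.22 for CEP135, -2.17 for KIF14 and -2.16 for NEXN. From 12 to 24 h it moved up by 3.71 for HBEGF, 2.73 for ANKRD1, 2.64 for ATF3, 2.52 for FAM159B and 2.39 for THBD. Over that interval it changed by -2.42 for ZNF792, -2.06 for PIF1, -2.0 for SOX21, -1.85 for AXIN2 and -1.55 for INSIG1. For the mitotic genes it changed by -1.33 for KIF20A, -1.14 for KIF4A, -0.96 for CCNB2, -0.92 for AURKA, -0.89 for CDCA8 and -0.86 for CCNB1.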

How the results depend on the processing

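Of 242 named genes, the 12 h call and direction held for 242 with DESeq2 size factors, for 241 with DESeq2, for 210 with the 4 libraries alone, for 207 in the corrected fit and for 124 when a change of at least 2-fold was tested. The 7363 genes became 3671 with those 4 libraries alone, 731 when a change of at least 2-fold was tested, and 4462 to 8673 when 1 library was left out. The 423 differences from 3 h became 1208 with DESeq2, 1808 with no filter, 46 with the 8 libraries compared, 8 at 2-fold, 179 and 134 with limma on log2(RPKM + 1) and log2(RPKM + 0.1), 1056 in the corrected fit and 43 to 4957 without 1 library. The 64 differences between 12 and 24 h became, in the same order, 203, 269, 0, 3, 100, 106, 315 and 4 to 522. edgeR's 0 on the 8 libraries compares with 1128 genes at an unadjusted p under 0.05. The cause of these shifts was not tested.

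Signs turned in the corrected fit for LBR (0.46), MBTPS2 (0.26), EREG (0.12), TFRC (0.20), CENPB (-0.0796), FZR1 (-0.14), CHAC1 (-0.31), MCM2 (-0.29), MCM5 (-0.32) and MCM7 (-0.33). Over the fits that leave out 1 library MCM2 ran from -0.0079 to 0.38, MCM5 from -0.0413 to 0.21 and MCM7 from -0.10 to 0.42, negative without PA replicate 1. CDC20 ran from -0.44 to 0.0157, positive without PA replicate 2. On log2(RPKM + 1) MCM5 stood at -0.0529, also with RPKM of at least 1, and FAM159B at 0.0283; on log2(RPKM + 0.1) they stood at -0.0551 and 0.24. These scales put the median of all genes lower by 0.13 to 0.14.

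Same-numbered libraries deviated together by over 0.1 in 2 of 21 pairs of groups (correlations from -0.218 to 0.244), so the replicate numbers were not taken to pair samples. With a replicate block 7098 genes passed at 12 h, 285 differed from 3 h and 23 between 12 and 24 h. Groups of 2 limit the precision, and genes at a few reads, such as CA9 with DMSO, rest on counting error.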
